A study of Homo sapiens with 2 samples.

Results

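Amino acid transporters are the membrane proteins that let cells take up, exchange and recycle amino acids. Members were chosen by gene symbol from 6 solute carrier families, SLC1, SLC3, SLC7, SLC36, SLC38 and SLC43, with SLC7A11 left out. The rule found 39 of the 58174 genes listed in the deposited files. Of these 39, 23 reached at least 1 TPM (a transcript level scaled by gene length and by library total) in either library and are described here, among 14929 genes of the whole series that did so.

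RNA-seq was performed in PLC-8024 cells, a human hepatocellular carcinoma (HCC) cell line grown in high-glucose medium with foetal bovine serum. The PLC-8024-CTR cells carried a control vector and the PLC-8024-GDF1 cells were stably transfected with GDF1, a ligand of the TGF-β superfamily. For GDF1 overexpression the methods describe lentiviral transduction and selection of stable cells with puromycin. The comparison asks how the transcriptome of HCC cells changes with GDF1. There was 1 library per condition, so no difference has a replicate check, no SD can be given and no test was made. Whether either line was 1 clone or a pool of cells, and at what time the RNA was taken, is not given in the sources used here.

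The SLC1 family holds the sodium-driven carriers of glutamate and aspartate and the exchangers of small neutral amino acids. The SLC7 family holds carriers of arginine and lysine that act alone, and light chains that reach the plasma membrane only when joined to a heavy chain of the SLC3 family. The SLC38 carriers move glutamine and other neutral amino acids with sodium. In the SLC36 family, carriers such as SLC36A1 move small amino acids with protons. In the SLC43 family, SLC43A1 and SLC43A2 let large neutral amino acids pass down their gradient. Hepatocytes use SLC38A3, SLC38A4 and SLC1A2 to exchange glutamine, alanine and glutamate with the blood. Proliferating tumour cells are known instead for high SLC1A5 and SLC7A5, which bring in glutamine and leucine.

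The log2 change of a gene is log2((TPM + 1)/(TPM + 1)), with the GDF1 library above and the control library below. It is called a plain ratio where no pseudocount was added. Adding 1 TPM makes the change of a low gene smaller. A gene is said to have risen or fallen where this value passed 2-fold, which is 1 or -1 on the log2 scale. Over the 14929 genes the median log2 change was -0.20. The files give no read counts, so the depth is unknown and no counting interval is given. The transfected gene was checked first. In the control and GDF1 libraries, in that order here and below, GDF1 had 2.096 and 4.64 TPM, and CERS1, which is known to share a bicistronic transcript with GDF1, 13.3 and 9612 TPM. Of 11 hepatocyte markers, 11 reached 1 TPM, from TTR (7.17 and 0.34 TPM) to SERPINA1 (5308 and 2915 TPM), and their summed level was 12272 and 10021 TPM. Of other cell types, 4 of 5 cholangiocyte or progenitor markers, 1 of 5 leukocyte, 1 of 4 endothelial and 1 of 5 fibroblast or stellate markers reached 1 TPM. PTPRC, VWF, KDR, DCN and ACTA2 were at 0.0001, the value that stands for 0, in both libraries, while CD68 had 33.1 and 13.2 TPM and PECAM1 23.2 and 22.2 TPM. In bulk RNA, fewer cells that express a gene and less RNA per cell cannot be told apart.

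Of the 23 transporters, 2 rose and 5 fell in PLC-8024-GDF1 cells, and 16 stayed within 2-fold. The amino acid exporter of lysosomes SLC38A7 and the small neutral amino acid exchanger SLC7A10 were the risers. The glutamate carriers SLC1A6 and SLC1A2, the glutamine carrier SLC38A3, the light chain SLC7A9 and the large neutral amino acid carrier SLC43A2 were lower. Among all 14929 genes, 4.82% rose and 9.61% fell, beside 8.70% and 21.7% of the transporters. The latter shares rest on 2 and 5 genes, no test was possible, and nothing is read from either share. Of the 5 that fell, SLC1A6, SLC7A9 and SLC43A2 reached 1 TPM in PLC-8024-CTR alone. They were therefore included only through the library where they were higher, and no transporter was included through PLC-8024-GDF1 alone. With TPM rescaled so that the median gene did not change, 6.97% of all genes rose and 6.85% fell, and 3 transporters rose and 4 fell. With the trend on GC content removed, 6.29% of all genes rose and 6.05% fell, and 3 transporters rose and 5 fell. With a pseudocount of 0.1 TPM, 7.82% of all genes rose and 15.5% fell, and 3 transporters rose and 6 fell. The median log2 change of the 23 transporters was -0.41 beside -0.20 for all genes. It was -0.21 beside -0.025 with rescaled TPM, and -0.23 beside -0.0079 with the GC trend removed. A log2 change below 0 was listed for 18 of them (78.3%), against 63.3% of all genes. Of the 11 hepatocyte markers, ALB, APOA1, TTR and HNF4A fell in the same comparison, by 1.02 to 2.61 on the log2 scale, and none rose. APOA1 and TTR alone of these 4 passed 2-fold downward after rescaling, and likewise after removal of the GC trend. TTR reached 1 TPM in PLC-8024-CTR alone. The log2 changes of FGA (0.96), KRT8 (0.32), KRT18 (0.28) and TF (0.12) lay above 0, and FGA passed 2-fold with rescaled TPM (1.17) and with the GC trend removed. Among the cholangiocyte or progenitor markers KRT7 (1.17) and KRT19 (1.13) rose and AFP (-1.59) fell. The part of these markers in the result was not tested.

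**Figure D1:**
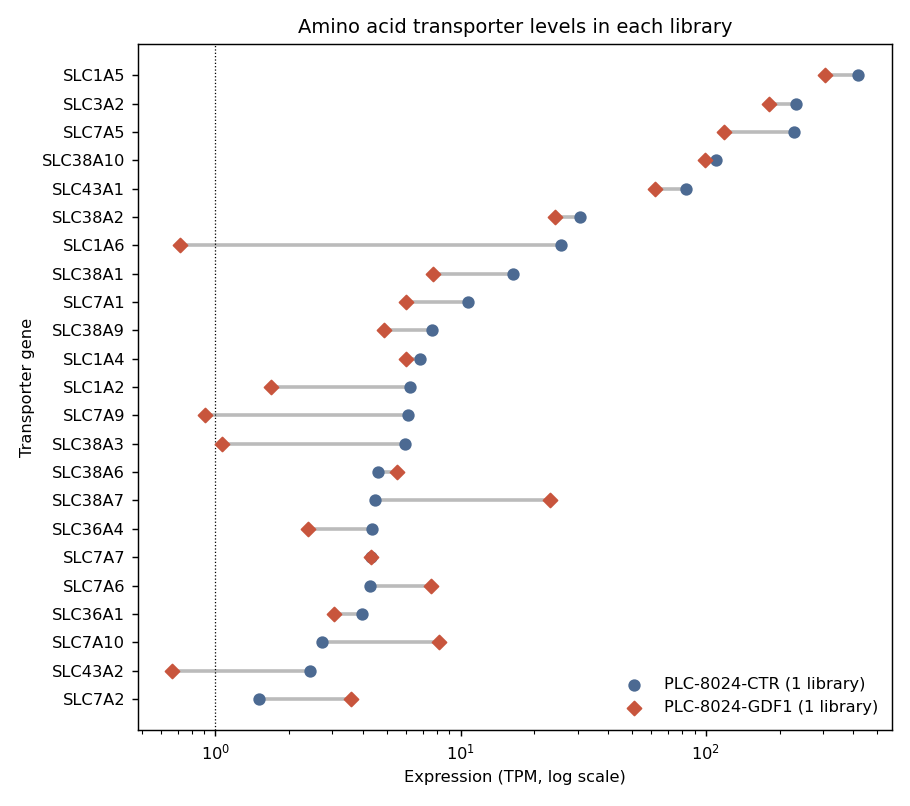
Level of each of the 23 transporters with at least 1 TPM in either library, with TPM on a log axis, 1 row per gene ordered by its level in PLC-8024-CTR (circles), PLC-8024-GDF1 as diamonds, a line joining the pair and a dotted line at 1 TPM. The 6 most abundant genes keep their order, while SLC1A6 moves from 25.7 to 0.72 TPM and SLC38A7 from 4.47 to 23.1 TPM.

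The promoters of the genes that changed most in either direction, and of SLC7A9, the neighbour of SLC7A10, are shown because the report turns on these 4 genes. Each run is the first window RefSeq lists for the gene on GRCh38.p14, from 250 bases before the start site to 50 after it, written 5′ to 3′ on the strand of the gene. Capitals mark every match, on either strand, to CACGTG (the E-box read by MYC and TFEB), TGATGNAAN (the C/EBP-ATF response element read by ATF4) and CAGAC (a SMAD-binding motif). No match of one motif overlapped another in these windows.
SLC38A7 (chr16:58684721-58685020, - strand): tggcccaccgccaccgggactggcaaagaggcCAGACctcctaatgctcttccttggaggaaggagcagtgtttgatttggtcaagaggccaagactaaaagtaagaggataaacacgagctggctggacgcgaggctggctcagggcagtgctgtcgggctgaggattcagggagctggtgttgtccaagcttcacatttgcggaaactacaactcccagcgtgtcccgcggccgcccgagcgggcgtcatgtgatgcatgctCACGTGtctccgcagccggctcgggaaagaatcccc
SLC7A10 (chr19:33225801-33226100, - strand): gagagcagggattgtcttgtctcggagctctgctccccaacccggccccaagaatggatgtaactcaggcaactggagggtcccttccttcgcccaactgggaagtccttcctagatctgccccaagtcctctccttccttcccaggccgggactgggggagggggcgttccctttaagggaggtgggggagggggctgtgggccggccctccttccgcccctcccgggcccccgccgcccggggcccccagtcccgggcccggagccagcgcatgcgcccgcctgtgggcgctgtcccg
SLC1A6 (chr19:15010594-15010893, - strand): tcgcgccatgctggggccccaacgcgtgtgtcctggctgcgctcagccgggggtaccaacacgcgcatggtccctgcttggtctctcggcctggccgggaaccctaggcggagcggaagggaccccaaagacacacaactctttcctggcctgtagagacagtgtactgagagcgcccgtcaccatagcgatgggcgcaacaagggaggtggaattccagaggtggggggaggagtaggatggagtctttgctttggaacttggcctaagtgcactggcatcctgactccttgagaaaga
SLC7A9 (chr19:32869718-32870017, - strand): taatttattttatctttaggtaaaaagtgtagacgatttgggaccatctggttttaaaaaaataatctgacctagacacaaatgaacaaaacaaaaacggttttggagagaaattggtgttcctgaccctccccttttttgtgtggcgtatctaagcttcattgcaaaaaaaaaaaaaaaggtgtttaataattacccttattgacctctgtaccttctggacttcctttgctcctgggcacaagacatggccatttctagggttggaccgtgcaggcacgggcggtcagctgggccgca

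In these 4 windows the SLC38A7 promoter alone held a match, with 1 CACGTG and 1 CAGAC. RefSeq windows were found for 20 of the 23 transporters, 37 windows in all, and SLC1A2, SLC38A3 and SLC7A2 had none. CACGTG stood in 16.2% of these 37 windows against 7.26% of all 35116 windows in the table. The 6 genes with it were SLC1A5, SLC36A1, SLC38A7, SLC43A1, SLC7A5 and SLC7A7, and their log2 changes ran from -0.94 (SLC7A5) to 2.14 (SLC38A7). CAGAC stood in 43.2% of the transporter windows and 45.3% of all windows. TGATGNAAN stood in 13.5% of the transporter windows against 3.61% of all windows. Its 5 matches are shown with up to 10 bases on each side, the match in capitals, because the ATF4 pathway is the known amino acid response.
SLC1A4 (chr2:64989381-64989409, + strand): gcggctcccgTTTGCATCAtctccagccg
SLC1A5 (chr19:46784893-46784921, - strand): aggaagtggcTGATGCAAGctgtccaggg
SLC38A1 (chr12:46266502-46266530, - strand): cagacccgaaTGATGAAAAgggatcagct
SLC3A2 (chr11:62881725-62881748, + strand): tgcaggactcCTTACATCAgctcc
SLC7A1 (chr13:29595663-29595691, - strand): ggcgcactgcTGATGAAACctggcgccgg

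None of these 5 genes passed 2-fold with a pseudocount of 1 TPM. Their log2 changes were -0.17 for SLC1A4, -0.45 for SLC1A5, -0.98 for SLC38A1, -0.36 for SLC3A2 and -0.75 for SLC7A1. A match is only a match of letters, and no binding was measured in these libraries. The CACGTG and TGATGNAAN shares rest on 6 and 5 of the 37 transporter windows. They stand beside windows of all genes, whether expressed here or not. No test was made, and nothing is read from these shares.

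The carriers of acidic amino acids were examined first. SLC1A6 encodes the glutamate transporter EAAT4, best known from Purkinje cells of the cerebellum. It fell from 25.7 TPM in the control library to 0.72 TPM with GDF1. The log2 change was -3.96 and the plain ratio was 35.8-fold in favour of the control, the largest change of any of the 23 transporters in either direction. That ratio divides by a level under 1 TPM with an unknown number of reads behind it, so its size is uncertain. SLC1A6 (ENSG00000105143) is on chromosome 19 of GRCh37, minus strand, from 15060845 to 15133802. SLC1A2, the glutamate transporter EAAT2 of astrocytes and of hepatocytes around the central vein, was listed at 6.19 TPM and 1.68 TPM, a log2 change of -1.42. It lies on chromosome 11 from 35272752 to 35441610. SLC1A1, SLC1A3 and SLC1A7, the other carriers of this branch, were under 1 TPM in both libraries. Added up, the 5 genes went from 32.9 to 2.93 TPM (log2 change -3.11). SLC1A6 made up 78.2% of that sum in PLC-8024-CTR and 24.5% in PLC-8024-GDF1.

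The neutral branch of SLC1 was the most abundant part of the set. SLC1A5 (ASCT2), which brings glutamine into tumour cells in exchange for other neutral amino acids, was listed at 418.0 and 305.1 TPM. It was the transporter with the highest level in both libraries, and ranked 325 and 464 among all genes. Its log2 change was -0.45, within 2-fold. SLC1A4 (ASCT1), an exchanger of alanine, serine and cysteine, was listed at 6.82 and 5.96 TPM, and its log2 change of -0.17 turned to 0.011 with rescaled TPM.

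The heavy chain SLC3A2, which carries the light chains of SLC7 to the plasma membrane, was listed at 232.7 and 181.5 TPM, a log2 change of -0.36. Its main light chain SLC7A5 (LAT1), the exchanger that takes up leucine and other large neutral amino acids, was listed at 228.6 and 118.6 TPM. The log2 change of -0.94 lay just inside 2-fold. The pseudogenes SLC7A5P1 and SLC7A5P2, to which reads of SLC7A5 could be assigned, together held 1.74 and 1.85 TPM, and with them added the log2 change of SLC7A5 was -0.93. The 5 light chains that pair with SLC3A2 (SLC7A5, SLC7A6, SLC7A7, SLC7A8 and SLC7A10) added up to 1.03 TPM per TPM of SLC3A2 in PLC-8024-CTR and 0.77 in PLC-8024-GDF1. SLC7A5 makes up most of that sum, and it alone of the 5 had a log2 change below that of SLC3A2.

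The smaller light chains did not follow SLC7A5. SLC7A10 (Asc-1), an exchanger of glycine, alanine and serine including D-serine, rose from 2.71 to 8.19 TPM (log2 change 1.31). SLC7A6, which exchanges arginine for neutral amino acids, was listed at 4.25 and 7.59 TPM, a log2 change of 0.71. SLC7A7, its close relative and the gene of lysinuric protein intolerance, was listed at 4.33 and 4.30 TPM. Its log2 change of -0.01 turned to 0.16 with rescaled TPM. Without SLC7A5, the other 4 light chains added up to 11.8 and 20.9 TPM, so that the share of SLC7A5 among the 5 was 95.1% in the control library and 85.0% with GDF1. For SLC7A6 the gene on the opposite strand, SLC7A6OS, covers 44.4% of its exon bases and was listed at 4.44 and 2.33 TPM. The sources used here do not say whether strand was used in counting, and the sum of both genes had 8.69 and 9.92 TPM, which gives a log2 change of 0.17.

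SLC7A9 encodes the light chain that takes up cystine and basic amino acids in kidney and gut and pairs with SLC3A1, and both genes are mutated in cystinuria. It fell from 6.10 to 0.91 TPM (log2 change -1.90). Its partner SLC3A1, named here after its values were seen, had 0.10 and 0.05 TPM, so the heavy chain of this pair was almost absent from both libraries. SLC7A9 (ENSG00000021488, 33321415 to 33360673) and SLC7A10 (ENSG00000130876, 33699570 to 33716756) both lie on chromosome 19 of GRCh37 and on its minus strand. The gap between them is 338896 bases, and they changed in opposite directions.

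Of the carriers of basic amino acids, SLC7A1 (CAT-1), the widespread arginine and lysine carrier, was listed at 10.7 and 5.99 TPM (log2 change -0.75). SLC7A2 (CAT-2), whose liver splice form is a low-affinity arginine carrier, was listed at 1.51 and 3.57 TPM, a log2 change of 0.87. Neither passed 2-fold with a pseudocount of 1, and SLC7A2 did so as a plain ratio (1.25), with rescaled TPM (1.03) and with the GC trend removed (1.26). The level of SLC7A1 per level of SLC7A2 was 7.13 in the control library and 1.68 with GDF1. SLC7A3, SLC7A4 and SLC7A14 were under 1 TPM in both libraries.

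Among the sodium-coupled neutral carriers, SLC38A7 (SNAT7), which exports glutamine and asparagine from lysosomes, rose from 4.47 to 23.1 TPM. Its log2 change of 2.14 was the largest rise of the 23 transporters, and its plain ratio was 5.15-fold. It moved from rank 16 to rank 7 among them, and from 2.48% to 13.8% of the summed TPM of the SLC38 family. SLC38A7 (ENSG00000103042) is on chromosome 16 of GRCh37, minus strand, from 58699013 to 58718674. SLC38A3 (SNAT3), the system N carrier that hepatocytes use for glutamine, fell from 5.91 to 1.07 TPM (log2 change -1.74) and lies on chromosome 3 from 50242679 to 50258918. SLC38A4, the other carrier of this family typical of liver and also named after its values were seen, was listed at 0.02 TPM in the control library and at the value the files write for 0 in PLC-8024-GDF1.

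The system A carriers SLC38A1 and SLC38A2 are neighbours on chromosome 12. SLC38A1 was listed at 16.3 and 7.73 TPM, a log2 change of -0.98 that passed -1 as a plain ratio (-1.07). SLC38A2, which is induced when amino acids run short, was listed at 30.7 and 24.2 TPM, a log2 change of -0.33 that turned to 0.11 with the GC trend removed. SLC38A9, the arginine sensor of the lysosome membrane that signals to mTORC1, was listed at 7.61 and 4.88 TPM (log2 change -0.55). SLC38A6 was listed at 4.61 and 5.50 TPM, and SLC38A10, by far the most abundant of the family, at 110.1 and 99.5 TPM, with log2 changes of 0.21 and -0.14. The sign of SLC38A10 turned to 0.061 with rescaled TPM. Summed over its 11 genes, the family was listed at 180.1 and 166.6 TPM, the smallest relative difference of the 6 families (log2 change -0.11, and 0.094 with rescaled TPM).

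Both SLC36 carriers with at least 1 TPM stayed within 2-fold. SLC36A1 (PAT1), which works at the lysosome membrane, was listed at 3.97 and 3.05 TPM (log2 change -0.30) and SLC36A4 at 4.35 and 2.37 TPM (log2 change -0.66). In the SLC43 family, SLC43A1 (LAT3), a carrier of leucine and other large neutral amino acids known from liver and prostate, was listed at 82.7 and 61.8 TPM, a log2 change of -0.41. SLC43A2 (LAT4), its relative, fell from 2.42 to 0.67 TPM. The log2 change of SLC43A2, -1.04, lay closest to the 2-fold limit of the 5 that fell, and SLC38A1 (-0.98) lay closest outside it.

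**Figure D2:**
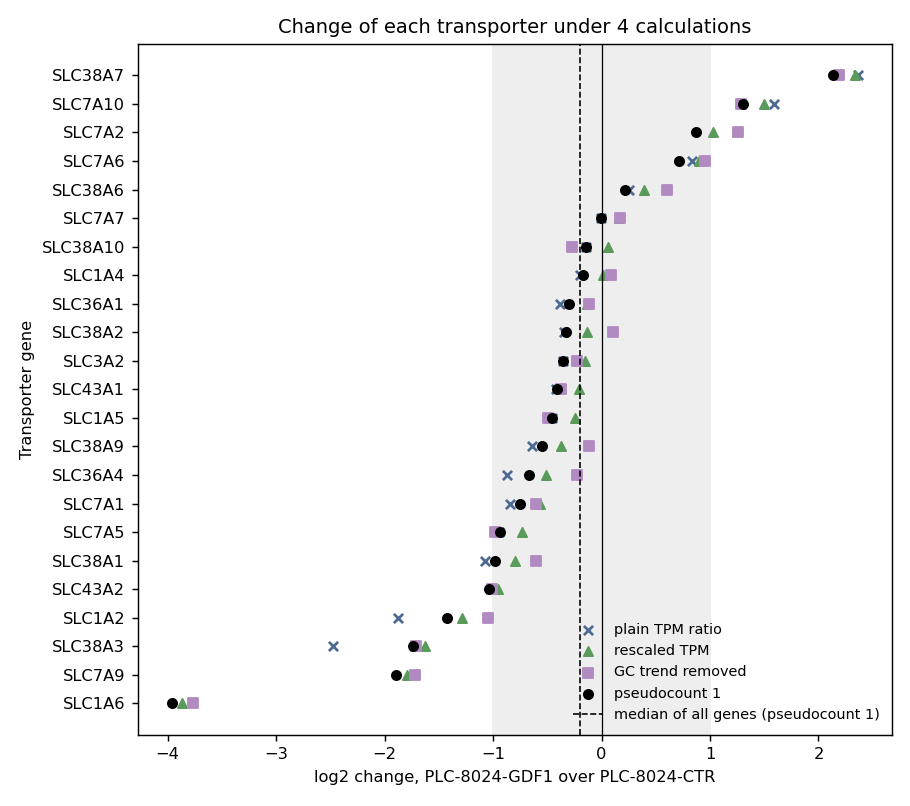
The log2 change, GDF1 library over control library, of each of the 23 transporters with a pseudocount of 1 (black circles), as a plain TPM ratio for the 20 genes that reached 1 TPM in both (crosses), with TPM rescaled so that the median gene is at 0 (triangles), and with the trend on GC content removed (squares); the grey band is within 2-fold and the dashed line is the median of all genes, -0.20. SLC38A7, SLC7A10, SLC1A2, SLC38A3, SLC7A9 and SLC1A6 lie outside the band under each calculation shown for them, whereas SLC43A2 moves inside it with rescaled TPM (-0.95) and SLC7A2 moves outside it under the other 3 and SLC38A1 as a plain ratio (-1.07).

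The changes were uneven across levels. The 4 transporters with at least 100 TPM in PLC-8024-CTR had log2 changes between -0.94 and -0.14, and none of them passed 2-fold. Of the 5 between 10 and 100 TPM, SLC1A6 fell. The remaining 14, under 10 TPM, held both genes that rose and the other 4 that fell. The order of the 6 most abundant genes, SLC1A5, SLC3A2, SLC7A5, SLC38A10, SLC43A1 and SLC38A2, was the same in both libraries, although without replicates it cannot be said which neighbours in that order differ. SLC1A5, SLC3A2 and SLC7A5 made up 71.9% of the transporter TPM in PLC-8024-CTR and 68.7% in PLC-8024-GDF1. All 39 genes together held 1223 and 880.5 TPM, which gives a log2 change of -0.47. By family the log2 change of the sum was -0.78 for SLC7, -0.54 for SLC1, -0.53 for SLC36, -0.44 for SLC43 and -0.36 for SLC3. With rescaled TPM these sums changed by -0.58, -0.34, -0.35, -0.23 and -0.15, in that order. Of the 23 genes, 20 reached 1 TPM in both libraries, and SLC1A6, SLC7A9 and SLC43A2 did so in PLC-8024-CTR alone.

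The remaining 16 of the 39 genes stayed under 1 TPM in both libraries. SLC36A2, SLC38A8, SLC7A4, SLC7A13 and SLC7A14 were listed at 0.0001 in both. The highest of the 16 was SLC7A8 (LAT2), a light chain of SLC3A2 that lay just below the limit of 1 TPM, at 0.49 and 0.85 TPM. Just inside that limit was SLC43A2. SLC38A5, a relative of SLC38A3, was listed at 0.21 and 0.47 TPM, and SLC43A3 at 0.27 and 0.38 TPM. The other low genes were SLC1A1, SLC1A3, SLC1A7, SLC3A1, SLC36A3, SLC38A4, SLC38A11 and SLC7A3. These 8 were at 0.55 TPM (SLC1A3 in PLC-8024-CTR) or less. A difference between such levels cannot be read without the number of reads behind them.

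Over all genes the log2 change followed the GC content of the transcript, and that trend was set beside the transporters. The 14640 expressed genes with a transcript in the annotation were divided into 5 equal groups by GC content. The median log2 change was -0.45 in the group of lowest GC content and 0.11 in that of the highest. The 2 transporters that rose had transcripts of 57.5% (SLC38A7) and 60.7% GC (SLC7A10), in groups where the median of all genes was -0.09 and 0.11. SLC38A3 (58.6%) and SLC43A2 (58.5%) fell in the same group as SLC38A7. SLC1A6 (50.3%) and SLC7A9 (51.1%) fell in the middle group, whose median was -0.21, and SLC1A2 (41.7%) in the second lowest, whose median was -0.33. With the trend removed, SLC38A7 was at 2.19, SLC7A10 at 1.28, SLC1A2 at -1.04, SLC38A3 at -1.71, SLC7A9 at -1.72 and SLC1A6 at -3.77, all still past 2-fold. SLC43A2 was at -1.01.

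The genes around each transporter that passed 2-fold were then examined, taking expressed genes whose start site lay within 500 kb. Around SLC38A7 there were 8 such genes, none of which passed 2-fold, with log2 changes from -0.93 to -0.03. The closest was GOT2, the mitochondrial aspartate aminotransferase, at 72.8 and 71.4 TPM. Around SLC1A6, 1 of 15 fell (6.67%, beside 9.61% of all genes) and none rose, and their median log2 change was -0.04. Of 33 genes around SLC38A3, 2 fell (6.06%), with a median of 0.06, and of 3 around SLC1A2 none passed 2-fold. SLC7A10 was the single riser among 19 genes around SLC7A9 (5.26%, beside 4.82% of all genes). SLC7A9 was the single gene that fell among 13 around SLC7A10 (7.69%, beside 9.61% of all genes). The log2 changes of these 13 ran from -1.90 to 0.96, with a median of -0.26. The closest to SLC7A10 was AC008738.7, at 120.5 and 200.8 TPM (log2 change 0.73). Of 25 genes around SLC43A2, 5 fell (20.0%, beside 9.61% of all genes) and 1 rose, and their median of -0.24 lay near the -0.20 of all genes. No transporter overlapped an expressed gene on its own strand. On the opposite strand, SLC7A10 shared 6.46% of its exon bases with LRP3 (20.9 and 25.4 TPM), and SLC1A5 and SLC38A6 shared under 2% with a gene.

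Genes that act with the transporters were counted in 4 further lists. No test was possible for these lists, and nothing is read from their shares beside those of all genes. The first held the other carriers of amino acids and peptides, 11 of 23 with at least 1 TPM, and 3 of the 11 fell (27.3%, beside 9.61% of all genes). These were SLC6A12, the betaine and GABA carrier of liver (9.96 to 1.71 TPM), SLC15A1, the peptide carrier PEPT1 (17.7 to 6.04 TPM), and SLC6A6, the taurine carrier (6.03 to 2.01 TPM). None of this list rose with a pseudocount of 1 TPM, and its median log2 change was -0.11. SLC6A14, at 0.22 and 1.00 TPM (log2 change 0.71), was included only through PLC-8024-GDF1, the library where it was higher. It passed 2-fold upward with the GC trend removed (1.15) and with a pseudocount of 0.1 TPM. Its level lay at the limit of 1 TPM, with an unknown number of reads behind it. The most abundant, SLC66A1, which exports basic amino acids from lysosomes, was listed at 86.0 and 79.7 TPM.

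The second list held enzymes that use the carried amino acids. Of 22 with at least 1 TPM, 7 fell (31.8%) and none rose, beside 9.61% and 4.82% of all genes, and the median log2 change was -0.87 beside -0.20. HPD, of tyrosine breakdown, fell from 77.7 to 14.4 TPM (log2 change -2.35), and OAT, which links ornithine to glutamate and proline, from 95.6 to 26.2 TPM (-1.83). ARG1, the liver arginase of the urea cycle, fell from 4.11 to 0.51 TPM and ARG2, the mitochondrial arginase, from 35.6 to 14.9 TPM. ARG1 reached 1 TPM in PLC-8024-CTR alone, so it was included only through the library where it was higher. ODC1, the first enzyme of polyamine synthesis, fell from 391.8 to 186.3 TPM (-1.07), and GPT2, which makes alanine and 2-oxoglutarate from glutamate and pyruvate, from 38.8 to 15.8 TPM (-1.24). GLUD2, an intronless copy of the glutamate dehydrogenase GLUD1, fell from 11.9 to 4.50 TPM, and reads could be shared between both copies, whose sum had a log2 change of -0.97. With rescaled TPM 6 of the 22 enzymes fell (6.85% of all genes), with the GC trend removed 5 (6.05% of all genes) and with a pseudocount of 0.1 TPM 11 (15.5% of all genes).

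The amino acid response list holds ATF4, the transcription factor made when uncharged tRNA builds up, with its targets and partners. ATF4 was listed at 821.9 and 604.9 TPM, a log2 change of -0.44. Of 19 genes with at least 1 TPM, 3 fell (15.8%, beside 9.61% of all genes) and 1 rose (5.26%, beside 4.82%), and the median log2 change was also -0.44. The genes that fell were MTHFD2 (29.2 to 10.3 TPM), PSAT1 (114.4 to 53.1 TPM) and TRIB3 (121.2 to 57.6 TPM), and the riser was NUPR1, a stress-induced chromatin protein (239.4 to 529.4 TPM). With rescaled TPM, MTHFD2 alone of the 19 still fell, beside 6.85% of all genes. With the GC trend removed 3 fell, beside 6.05% of all genes. These were TRIB3 (-1.11), MTHFD2 (-1.06) and CEBPB (-1.03), while PSAT1 (-0.73) moved within 2-fold. NUPR1 was the single riser under both calculations. ASNS, the asparagine synthetase that is the classical target of this pathway, was listed at 231.4 and 127.2 TPM (log2 change -0.86), and stood in the list of enzymes too.

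For the sensing of amino acids at the lysosome, 32 of 36 listed genes had at least 1 TPM, and 29 of them stayed within 2-fold. The other genes were 2 that fell (6.25%, beside 9.61% of all genes) and 1 that rose (3.12%, beside 4.82%). The median log2 change was -0.25. CASTOR1, a cytosolic arginine sensor, rose from 2.97 to 9.64 TPM (log2 change 1.42). Its relative CASTOR2 was listed at 2.63 and 0.78 TPM and LAMTOR3, a subunit of the Ragulator scaffold, at 6.31 and 2.51 TPM. These were the 2 genes that fell, by 1.02 and 1.06 on the log2 scale, and neither passed 2-fold with rescaled TPM. CASTOR2 reached 1 TPM in PLC-8024-CTR alone, so it was included only through the library where it was higher. The scaffold subunits LAMTOR4 (363.5 and 583.4 TPM) and LAMTOR2 (192.3 and 328.7 TPM) had log2 changes of 0.68 and 0.77. Those of the subunits LAMTOR5 (133.5 and 152.8 TPM) and LAMTOR1 (117.0 and 84.3 TPM) were 0.19 and -0.47, so the subunits did not change in 1 direction.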

How the data were processed

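Each condition, PLC-8024-CTR and PLC-8024-GDF1, was sequenced as 1 library. Per the submitters' processing notes and the methods, the authors selected poly-A RNA, filtered the paired reads with Trimmomatic (version 0.36), aligned them to hg19 with HISAT2 (version 2.1.0), quantified them with StringTie (version 1.3.3b) and deposited TPM values, with 0.0001 in place of 0. TPM keeps no depth, so precision could not be computed, and DEGseq, which the study ran on read counts, was not repeated.

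Both tables were joined by gene identifier and changes were computed with a pseudocount of 1 TPM over genes reaching 1 TPM in at least 1 library. For rescaling, the PLC-8024-GDF1 values were multiplied by 1.15, which sets the median plain log2 ratio of the 9632 genes that reached 5 TPM in at least 1 library to 0 and shifts every ratio by 0.21. The trend on the GC content of the longest transcript was a lowess fit (span 0.3). Positions came from GENCODE release 44 for GRCh37, the build called hg19, with 55726 of 58174 identifiers matched, and promoters from RefSeq on GRCh38.p14. Python 3.11.15, numpy 2.4.6, pandas 2.3.3, statsmodels 0.14.6 and matplotlib 3.10.9 were used, and the counting was tested on simulated data.

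Every transporter with at least 1 TPM in either library could be named, together with GDF1, CERS1, genes of the related lists past 2-fold and up to 4 abundant genes of each such list. Other genes with values are low transporters, neighbouring or overlapping genes, LAMTOR1, LAMTOR2, LAMTOR4, LAMTOR5, ASNS and cell type markers given as examples. They were chosen after their values were seen where that rule does not cover them. Of the hepatocyte markers, 1 was left out of every count and sum and is not reported here. The members and lists were chosen with earlier results of these data known. Alternatives were another pseudocount, the plain ratio, other TPM minimums, rescaling, removal of the GC trend and leaving out overlapping genes.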

Additional observations from a re-analysis of the deposited data

How the results depend on the processing

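No paired analysis was possible because there was a single library per condition. The number of transporters that rose was 2 or 3 under every alternative run, and the number that fell ranged from 3 to 6, the highest with a pseudocount of 0.1, where SLC38A1 passed 2-fold. As a plain ratio 3 of the 20 genes that reached 1 TPM in both fell, because SLC1A6, SLC7A9 and SLC43A2 were not counted there and SLC38A1 was. The share of all genes was not computed for the plain ratio, for a minimum of 5 TPM or without a filter. The counts under those settings can therefore not be set beside all genes. The median log2 change of the transporters, -0.41, was -0.21 with rescaled TPM, -0.23 with the GC trend removed and -0.072 with no filter on low values, over 39 genes of which 16 are under 1 TPM. Small differences turned with rescaled TPM for SLC1A4 (0.011), SLC38A10 (0.061), SLC7A7 (0.16) and the SLC38 sum (0.094), and with the GC trend removed for SLC1A4 (0.091), SLC38A2 (0.11) and SLC7A7 (0.17). No transporter shared its strand and position with an expressed gene, so leaving out such genes removed none and could not change the counts. Overlaps on the opposite strand, such as that of SLC7A6 with SLC7A6OS, were not left out. The missing depth limits the genes with low TPM most.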
